A study of Homo sapiens with 2 samples.

Results

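The nuclear pore genes and the nuclear import receptor genes were read in the human colorectal cancer line HCT116. They were chosen by symbol: NUP followed by a number for the pore, and KPNA, KPNB or IPO at the start of the symbol for the receptors. Of 18132 genes with at least 1 probe set carrying only their own symbol, 38 met this rule, 24 of them pore genes and 14 receptor genes. Each gene was read on its brightest such probe set. A floor was set at the median of all non-control values, 78.0 in intensity or 6.29 on the log2 scale, and 35 of the 38 genes reached it on at least 1 array. These 35 were 22 pore and 13 receptor genes, of 10437 genes past the floor in all. KPNA2 and IPO11-LRRC70 also meet the symbol rule, but only on probe sets that carry several symbols.

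The study infected HCT116, an epithelial line from a colorectal carcinoma, with lentivirus at a multiplicity of infection of 20 for 72 h. The shRAP1 culture received a single short hairpin RNA against RAP1, and the shNC culture received a negative-control hairpin. Each group held 1 culture on 1 array, so no difference here has a replicate check or a p-value, and the precision is limited by the number of arrays. Single readings below are RMA intensities on the linear scale, and a difference is the log2 signal in shRAP1 minus that in shNC. The values are relative to the rest of the array, because quantile normalisation removes any change in total RNA per cell.

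Nuclear pores are channels through the nuclear envelope built from many copies of the nucleoporins. Stacked rings form the scaffold, nucleoporins with phenylalanine-glycine repeats fill the channel, and filaments and a basket project from its faces. Large cargo crosses with karyopherins. Importin alpha adaptors bind nuclear localisation signals and travel with importin beta, while other importins bind cargo directly. The GTPase Ran, loaded with GTP in the nucleus, releases imported cargo there and loads the exportins. Pores are made both in interphase and when the envelope reforms after mitosis, so dividing cells need new pore subunits each cycle.

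RAP1 can name the telomere protein gene TERF2IP or the GTPase genes RAP1A and RAP1B. TERF2IP read 624 in shRAP1 and 1311 in shNC, RAP1A 987 and 1122, and RAP1B 1358 and 1456. TERF2IP was at 47.6% of the control, and its difference ranked 2 from the lowest among the 10437 genes past the floor. RAP1A was at 88.0% of the control and RAP1B at 93.3%. The TERF2IP reading rests on 1 probe set, whose name ends in _s_at, so its probes may also fit further transcripts. Without probe sets named in _x_at or _s_at, neither TERF2IP nor RAP1B had a value past the floor. All 7 epithelial markers were past the floor, among them EPCAM at 6292 in shRAP1 and 6661 in shNC. Of the 8 leukocyte markers, 2 were past the floor, and HLA-DRA and CD68 differed by 0.29 and 0.14. Of the 8 fibroblast and endothelial markers, 1 was past it, KDR at 0.15. The highest reading of each gene summed to 429 in shRAP1 and 370 in shNC over the leukocyte list. Over the fibroblast and endothelial list they summed to 263 and 239. PTPRC, which defines leukocytes, read 9.25 and 11.4, and COL1A2, a fibroblast collagen, read 16.4 and 15.4. Both samples were cultures of the HCT116 line, and whether cells of any other type were present was not tested.

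The 250 bases before the start of 4 genes are shown because these genes had the lowest (NUP88, IPO8) and the highest (NUP155, NUP98) differences among the 35. They were chosen after their values were seen. The sequences are from RefSeq on GRCh38.p14 and read 5′ to 3′ on the gene's own strand, which is the minus strand for all 4. They lie at chr17:5419663-5419912 for NUP88, chr12:30695870-30696119 for IPO8, chr5:37371107-37371356 for NUP155 and chr11:3797547-3797796 for NUP98. Capitals mark, on either strand, the CCAAT box (CCAAT), the core of ETS factor sites (CGGAAG) and the telomeric repeat unit (TTAGGG), and no match overlapped another.
NUP88: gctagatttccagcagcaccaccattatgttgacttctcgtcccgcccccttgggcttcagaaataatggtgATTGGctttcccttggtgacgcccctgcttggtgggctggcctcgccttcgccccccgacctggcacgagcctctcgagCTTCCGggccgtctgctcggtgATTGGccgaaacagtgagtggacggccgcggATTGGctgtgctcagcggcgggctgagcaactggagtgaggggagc
IPO8: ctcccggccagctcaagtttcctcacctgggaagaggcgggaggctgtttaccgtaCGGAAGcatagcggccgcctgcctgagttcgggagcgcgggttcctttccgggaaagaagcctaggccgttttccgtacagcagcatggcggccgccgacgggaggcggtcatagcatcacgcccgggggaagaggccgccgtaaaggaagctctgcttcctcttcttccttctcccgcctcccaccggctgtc
NUP155: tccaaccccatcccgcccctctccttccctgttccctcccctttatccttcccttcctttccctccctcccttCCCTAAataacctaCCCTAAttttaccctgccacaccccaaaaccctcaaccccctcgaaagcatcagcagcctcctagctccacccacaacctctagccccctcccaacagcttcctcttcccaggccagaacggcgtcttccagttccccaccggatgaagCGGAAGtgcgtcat
NUP98: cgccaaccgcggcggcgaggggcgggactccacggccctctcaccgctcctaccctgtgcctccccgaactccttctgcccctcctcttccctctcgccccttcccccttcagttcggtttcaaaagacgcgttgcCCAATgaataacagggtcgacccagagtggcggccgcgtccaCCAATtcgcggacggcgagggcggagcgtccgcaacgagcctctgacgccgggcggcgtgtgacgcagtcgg

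The NUP88 window held 3 CCAAT matches and 1 CGGAAG match. IPO8 held 1 CGGAAG match, and NUP98 held 2 CCAAT matches. NUP155 held 1 CGGAAG match and 2 copies of TTAGGG, the unit to which shelterin, the complex that holds TERF2IP, binds at telomeres through its other subunits. A match of letters is not a bound site.

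Promoter sequence was at hand for 31 of the 35 genes, and the same 250-base window was searched on either strand in 27305 promoters, 8660 of them of genes past the floor. CGGAAG was present in 12 of 31 (38.7%), against 29.0% of the promoters of genes past the floor and 16.8% of all promoters. It was in 10 of 21 pore genes and 2 of 10 receptor genes. TTNGCGC, the core of E2F sites, which cell-cycle genes often carry, was present in 8 of 31 (25.8%), against 11.4% and 6.73%. TTAGGG was in 5 of 31 (16.1%), against 7.71% and 7.85%, and all 5 were pore genes. CCAAT was in 13 of 31 (41.9%), against 35.3% and 33.0%. CACGTG, the E-box read by MYC, was in 5 of 31 (16.1%), against 9.21% and 6.49%. TTTGAA, the cell-cycle homology region, was in 7 of 31 (22.6%), against 8.07% and 13.6%. GGGCGG, read by SP1, was in 13 of 31 (41.9%), against 69.4% and 42.3%, and the cyclic AMP response element TGACGTCA was in 3 of 31 (9.68%), against 3.11% and 1.77%. These shares are descriptions of small sets, and the windows of the 31 genes had a median GC content of 61.6%, against 65.2% for genes past the floor and 58.0% for all promoters.

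Differences were small throughout. Of the 35 genes, 24 were lower and 11 higher in shRAP1, and 34 lay within 1.2-fold. The exception was NUP88, lower by just over 1.2-fold. Among all genes past the floor, 46.8% were lower and 53.2% higher, 3.58% were lower by 1.2-fold or more and 4.96% higher by 1.2-fold or more. None of the 35 reached 1.5-fold, against 0.172% of all genes lower and 0.211% higher by that size. None reached 2-fold either, against 0.0192% of all genes in each direction. The count past 1.2-fold was thus near the background, and the lower direction was the more frequent. In a bulk extract, less RNA per cell and fewer cells expressing a gene cannot be told apart.

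**Figure D1:**
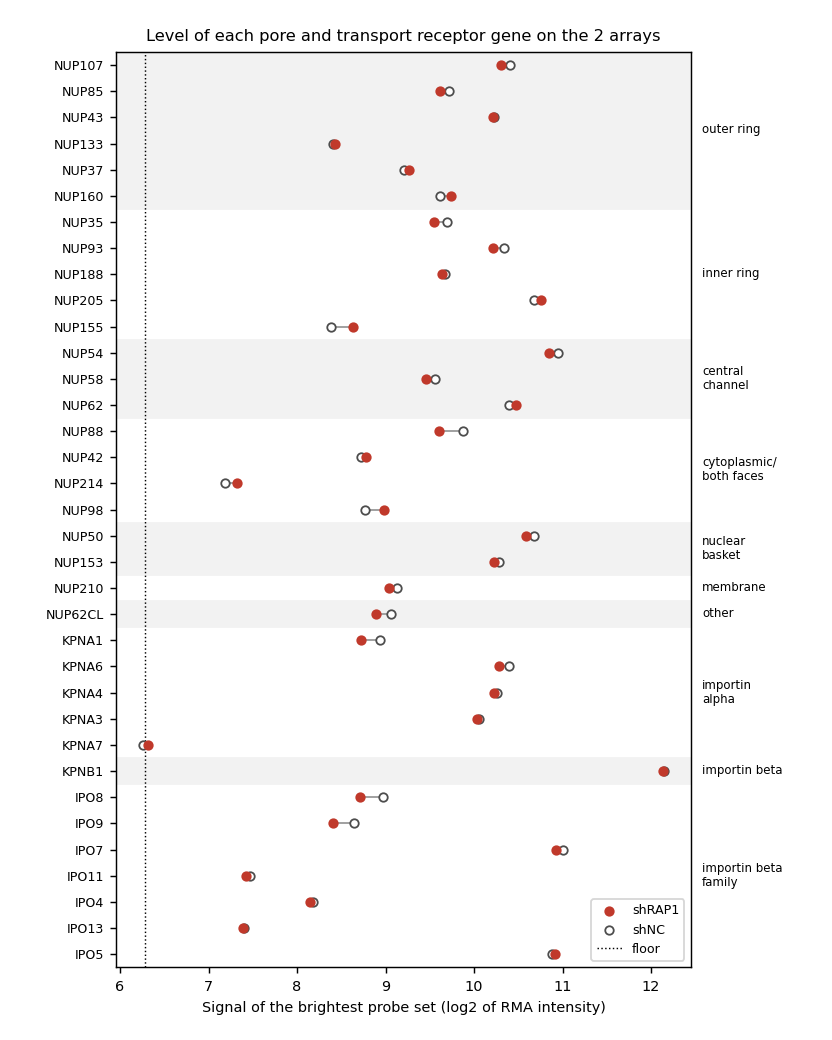
Signal of the brightest probe set of each of the 35 genes past the floor (x axis, log2 of RMA intensity), filled for shRAP1 and open for shNC, by role. The points of a gene lie close together for most genes, and NUP88, IPO8, IPO9, KPNA1, NUP155 and NUP98 are the furthest apart; signals of different genes are not comparable in size because probe sets differ.

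Pore genes were mixed and the import receptors were mostly lower. Of 22 pore genes, 13 were lower (59.1%) and 9 higher. Their median was −0.049, with a range from −0.27 to 0.24, and it was −0.0096 once the less specific probe sets were left out (names in _x_at or _s_at, whose probes may also fit further transcripts). Of 13 receptor genes, 11 were lower (84.6%) and 2 higher. Their median was −0.028, with a range from −0.26 to 0.067, and it was −0.071 over the 9 genes past a floor at the 75th percentile. The upper end of that range, and 1 of the 2 higher genes, is KPNA7, which reached the main floor in shRAP1 only. All genes had a median of 0.010 and an SD of 0.16. The SD was 0.13 over the pore genes and 0.11 over the receptor genes. The pore median was below the receptor median, a contrast of −0.021. It was above 0 under 4 of the alternatives, at 0.012 with a higher floor, 0.014 with lowess centring, 0.035 without the less specific probe sets and 0.054 between means. Which class stood lower thus depended on the setting.

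**Figure D2:**
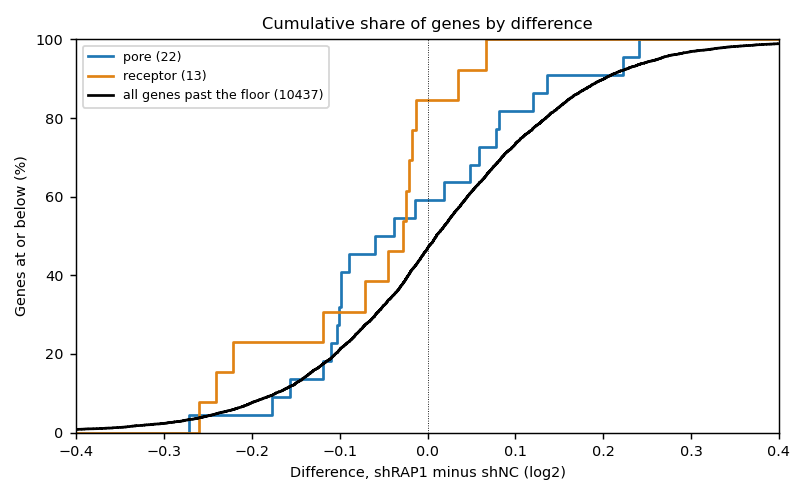
Cumulative share of genes (y axis, %) at or below each difference, shRAP1 minus shNC (x axis, log2), for 22 pore genes, 13 receptor genes and all 10437 genes past the floor. The receptor curve crosses 0 at 84.6% and the pore curve at 59.1%, against 46.8% for all genes. The highest receptor value, 0.067, is that of KPNA7, which reached the floor in shRAP1 only.

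The difference moved with signal across all genes, and the part of this trend in the pore and receptor values was read by removing it. Bright genes were slightly lower in shRAP1: 53.7% of the brighter genes were lower, against 39.9% of the dimmer genes, when all genes were split at their median signal. Of the 35 genes, 27 fell on the brighter side. With the trend of difference on signal removed (lowess centring), 13 of 22 pore genes and 11 of 13 receptor genes were lower, against 50.4% of all genes. All 13 of the lower pore genes and 10 of the 11 lower receptor genes kept their direction. KPNB1 moved to 0.0090 and KPNA7 to −0.0027. The medians were then −0.041 for the pore and −0.054 for the receptors.

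**Figure D3:**
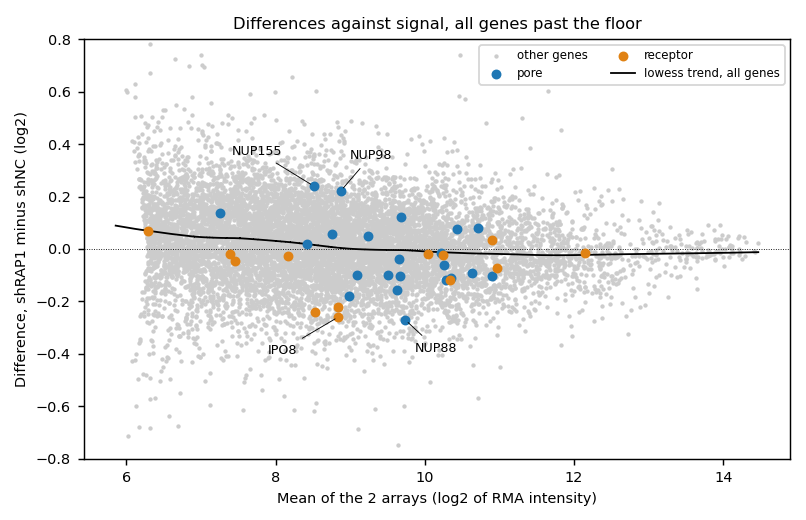
Difference, shRAP1 minus shNC (y axis, log2), against the mean signal of the 2 arrays (x axis, log2 of RMA intensity) for all genes past the floor, with pore genes, receptor genes and the lowess trend marked. The 35 genes lie between −0.27 and 0.24, inside the cloud of other genes; 9 genes fall outside the plotted range of 0.8 in either direction, and none of them is a pore or receptor gene.

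In the outer ring, the Y-shaped complex that coats the membrane on each face of the pore, 3 genes were lower and 3 higher. NUP107, a core stem subunit of the Y, read 1262 in shRAP1 and 1362 in shNC, a difference of −0.11 on its only probe set. NUP85, in a short arm of the Y, read 785 in shRAP1 and 842 in shNC, a difference of −0.10 with 3 probe sets from −0.19 to 0.013. NUP160, the partner arm, went the other way with 852 in shRAP1 and 784 in shNC, a difference of 0.12 with 3 probe sets from −0.080 to 0.12. The rest lay near 0: NUP133, which carries a sensor of curved membrane, at 0.019, and the small propeller subunits NUP37 and NUP43 at 0.049 and −0.014. On their brightest probe sets, subunits of the same complex did not share a direction, and their median was 0.0025.

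The inner ring, which anchors the channel to the scaffold, held the highest difference of all 35 genes. NUP155 read 396 in shRAP1 and 335 in shNC, a difference of 0.24 on its only probe set, and 93.6% of all genes lay lower. NUP35, which binds the pore membrane, read 746 in shRAP1 and 831 in shNC, a difference of −0.16. All 4 of its probe sets were lower, from −0.31 to −0.12. NUP93, the linker that ties ring and channel together, read 1191 in shRAP1 and 1294 in shNC, a difference of −0.12 on 1 probe set. The large scaffold paralogues NUP205 and NUP188 differed by 0.081 and −0.038. The ring as a whole had 3 lower and 2 higher genes, and its median was −0.038.

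The central channel is lined by a complex of NUP62, NUP54 and NUP58, whose phenylalanine-glycine repeats form the transport barrier. NUP54 read 1836 in shRAP1 and 1971 in shNC, a difference of −0.10, and its 4 probe sets were all lower, from −0.22 to −0.044. NUP58 read 705 in shRAP1 and 755 in shNC, a difference of −0.099, but its 4 probe sets ran from −0.23 to 0.15. NUP62 read 1418 in shRAP1 and 1344 in shNC, a difference of 0.077, with 3 of 4 probe sets higher. On their brightest probe sets, the partners of this complex thus differed in opposite directions, each by less than 1.2-fold. The directions of NUP58 and NUP62 varied between their probe sets.

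The cytoplasmic side held both the lowest and the second highest difference of the pore genes. NUP88, which sits in the filament complex with NUP214, read 778 in shRAP1 and 939 in shNC, or 82.9% of the control, a difference of −0.27. Only 3.28% of all genes lay lower, and the size was 1.86 times the SD of the 500 genes nearest in signal, which describes spread between genes and is not an experimental error. Its probe sets did not all share the direction: 3 of 4 were lower, and the dimmest, near the floor, was at 0.083. That dimmest probe set reached the floor in shRAP1 only, at 82.0 in shRAP1 and 77.4 in shNC. The median over the 4 probe sets of NUP88 was −0.14, within 1.2-fold. NUP98, a repeat nucleoporin found on both faces whose precursor also yields an outer ring subunit, read 508 in shRAP1 and 435 in shNC, a difference of 0.22. Its 3 probe sets disagreed, since another read 228 in shRAP1 and 288 in shNC, a difference of −0.34, and the third was at 0.035. NUP214, to which exportin complexes bind, read 161 in shRAP1 and 146 in shNC, a difference of 0.14 with 3 probe sets from −0.20 to 0.14. NUP42, a partner of the mRNA export factor GLE1, was at 0.059, while 3 of its 4 probe sets were lower.

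On the nuclear side, NUP50 and NUP153 were lower on every probe set past the floor. NUP50, which binds importin alpha and helps to release its cargo, read 1542 in shRAP1 and 1641 in shNC, a difference of −0.090. All 7 of its probe sets were lower, from −0.27 to −0.090, and the brightest showed the smallest size. NUP153, which tethers the basket to the ring, read 1199 in shRAP1 and 1249 in shNC, a difference of −0.059, with the other at −0.010. TPR, which forms the basket filaments and lies outside the symbol rule, went the other way and is named after its value was seen. It read 1356 in shRAP1 and 1279 in shNC, a difference of 0.084, and all 3 of its probe sets were higher. NUP210, a transmembrane nucleoporin, read 525 in shRAP1 and 562 in shNC, a difference of −0.099, with the other probe set at 0.079. NUP62CL, whose symbol marks likeness to the end of NUP62 and whose place in the pore is not given here, read 474 in shRAP1 and 536 in shNC, a difference of −0.18 on 1 probe set. NUP210L and the pseudogene NUP210P1 lay below the floor, at 12.6 and 13.7 in shRAP1 and 12.6 and 13.0 in shNC, and enter no count.

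Among the importin alpha adaptors 4 of 5 genes past the floor were lower, against 46.8% of all genes past the floor. KPNA1 read 421 in shRAP1 and 492 in shNC, a difference of −0.22. Its 5 probe sets ran from −0.22 to 0.055, 3 lower and 2 higher. KPNA6 read 1243 in shRAP1 and 1350 in shNC, a difference of −0.12, and all 5 of its probe sets were lower, from −0.44 to −0.020. KPNA3 and KPNA4, a closely related pair, were at −0.021 and −0.024, with probe sets from −0.021 to 0.20 for KPNA3 and from −0.16 to 0.086 for KPNA4. KPNA7, known from oocytes and early embryos, read 80.0 in shRAP1 and 76.4 in shNC, just past the floor of 78.0 in shRAP1 only. KPNA5 read 69.6 in shRAP1 and 67.7 in shNC, just below it. KPNA2, an adaptor abundant in dividing cells, shares its only probe set with the pseudogene ARHGAP27P1. That probe set read 5132 in shRAP1 and 4927 in shNC, a difference of 0.059, and it cannot be given to either gene alone.

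KPNB1, importin beta itself, carries the adaptors through the channel and was nearly level on its brightest probe set. That probe set read 4509 in shRAP1 and 4551 in shNC, a difference of −0.014. The 5 probe sets of KPNB1 ran from −0.12 to 0.0058, 4 of them lower, and their median was −0.095.

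Of the 7 genes of the wider importin beta family, 6 were lower, against 46.8% of all genes past the floor. IPO8, an import receptor for Argonaute proteins, read 418 in shRAP1 and 501 in shNC, or 83.5% of the control, a difference of −0.26. All 4 of its probe sets were lower, from −0.26 to −0.20, although the 2 brightest hold the same values on each array and count as 1 reading. Only 3.73% of all genes lay lower than IPO8. IPO9, which carries histones H2A and H2B, read 338 in shRAP1 and 400 in shNC, a difference of −0.24, but its other 2 probe sets past the floor were at 0.00027 and 0.017. IPO7, a carrier of ribosomal proteins, read 1953 in shRAP1 and 2052 in shNC, a difference of −0.071, and all 4 of its probe sets were lower, from −0.15 to −0.071. IPO5, which also carries ribosomal proteins, read 1928 in shRAP1 and 1882 in shNC, a difference of 0.035, with the other probe sets at −0.031 and −0.14.

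The remaining importins lay near 0. IPO11, which carries a ubiquitin-conjugating enzyme, was at −0.045 on its single-symbol probe set and at 0.069 on a brighter probe set shared with IPO11-LRRC70. IPO4, a histone carrier, was at −0.028. IPO13, which moves cargo in either direction, was at −0.018, with its dimmer probe set at −0.22, from 82.7 in shRAP1 and 96.2 in shNC.

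Taking every probe set past the floor, and counting identical readings of a gene once, 44 of 64 pore probe sets (68.8%) and 29 of 38 receptor probe sets (76.3%) were lower, against 50.6% of all single-symbol probe sets. Their medians were −0.076 and −0.059, further from 0 than the medians over brightest probe sets. Probe sets of a gene share its RNA and are not replicates. Past the floor, 26 of the genes had 2 or more probe sets, of which 8 genes were lower on all of them and 0 were higher on all of them. The 8 were NUP35, NUP50, NUP54, NUP153, KPNA6, IPO7, IPO8 and IPO13. Among all genes with 2 or more, 31.0% were lower on all and 29.2% were higher on all. The share lower on all (30.8%) was thus near the background, and the genes higher on all probe sets were the ones not seen. The span between a gene's lowest and highest probe set had a median of 0.19 over pore genes and 0.21 over receptor genes, against 0.13 over all genes, and it exceeded the typical difference of a gene. Neither the shares nor the spans were matched for the number of probe sets per gene, on which both depend.

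**Figure D4:**
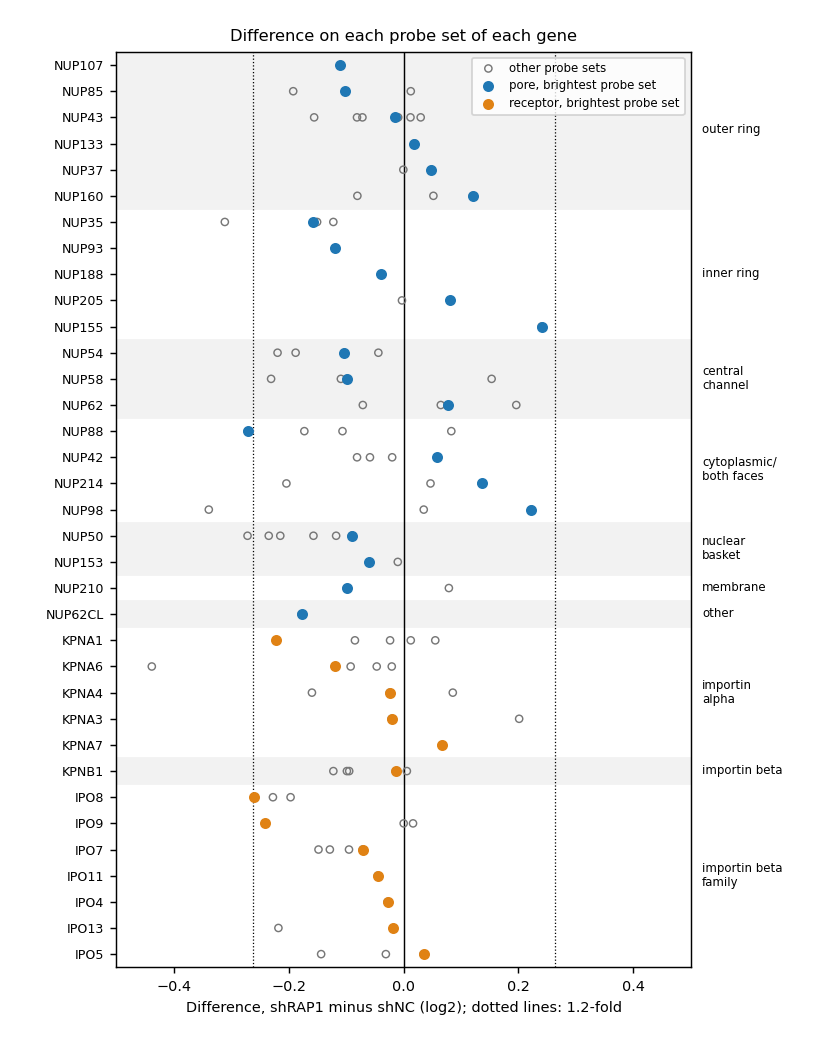
Difference, shRAP1 minus shNC (x axis, log2), on each probe set past the floor of the 35 genes, with the brightest probe set filled (blue for pore, orange for receptor) and others open; dotted lines mark 1.2-fold. All 7 probe sets of NUP50 and all 4 of IPO8 lie left of 0, while those of NUP98 run from −0.34 to 0.22.

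Other genes of the same transport system were taken from lists by function, and their counts stand beside the shares of all genes that were lower (46.8%), lower by 1.2-fold (3.58%) and higher by 1.2-fold (4.96%). Of 10 nucleoporins whose symbols do not begin with NUP, 7 were lower and 3 higher, and the median was −0.080. AHCTF1, which starts pore assembly on chromatin, was at −0.26 and on its dimmer probe set at 0.025. GLE1 was at −0.20 with all 3 probe sets lower, and RANBP2, the large filament nucleoporin, at −0.16 with all 4 lower. POM121, a membrane nucleoporin, read 767 in shRAP1 and 659 in shNC, a difference of 0.22 on 1 probe set, and of 0.080 with probe sets of several symbols admitted. None of these 10 reached 1.2-fold.

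Of 10 exportins and transportins, 9 were lower and 1 higher, and the median was −0.064. XPO1, the main exportin for proteins with leucine-rich signals, read 1353 in shRAP1 and 1642 in shNC, a difference of −0.28. All 4 of its probe sets were lower, from −0.28 to −0.080. CSE1L, which returns importin alpha to the cytoplasm, was at −0.11 with all 3 probe sets lower, and XPO7 at −0.12 with all 3 lower. TNPO1, a transportin for RNA-binding proteins, was at 0.18, with probe sets from −0.17 to 0.27. In this list 1 of 10 genes, XPO1, was lower by 1.2-fold or more, against 3.58% of all genes. The call was lost with the median of its probe sets (−0.13), without the less specific probe sets (−0.13) and, narrowly, with lowess centring (−0.26). The list median was −0.032 with the median of each gene's probe sets.

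Of 7 measured genes of the Ran cycle, 6 were lower and 1 higher, against 46.8% of all genes lower, and the median was −0.080. It was −0.021 over 5 genes without the less specific probe sets, where RAN and RANBP1 have no value. RANBP1, which helps to take Ran off its carriers in the cytoplasm, read 3200 in shRAP1 and 4131 in shNC, a difference of −0.37, with its other probe set at −0.34. RAN itself read 5738 in shRAP1 and 6214 in shNC, a difference of −0.12, with 3 probe sets from −0.29 to −0.12. RANBP3 was at −0.088 with probe sets of both signs, and RCC1, which loads Ran with GTP on chromatin, was at 0.15 and on its dimmer probe set at −0.0058. RANBP1 was the 1 gene of 7 past 1.2-fold, against 3.58% of all genes lower by that size, and its call rests on these less specific probe sets.

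Of 14 measured mRNA export genes, 10 were lower and 4 higher, and the median was −0.051, or −0.10 with the median of each gene's probe sets. SARNP was at −0.28 with all 4 probe sets lower, the helicase gene DDX39A at −0.26 with both probe sets lower, and THOC7, of the THO complex, at −0.22 on 1. DDX39B, the paralogue of DDX39A, read 117 in shRAP1 and 90.8 in shNC, a difference of 0.37 on a probe set near the floor. With probe sets of several symbols admitted it was at −0.035, so its direction is not settled. In this list 1 of 14 genes, SARNP, was lower and 1, DDX39B, higher by 1.2-fold or more, against 3.58% and 4.96% of all genes.

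**Figure D5:**
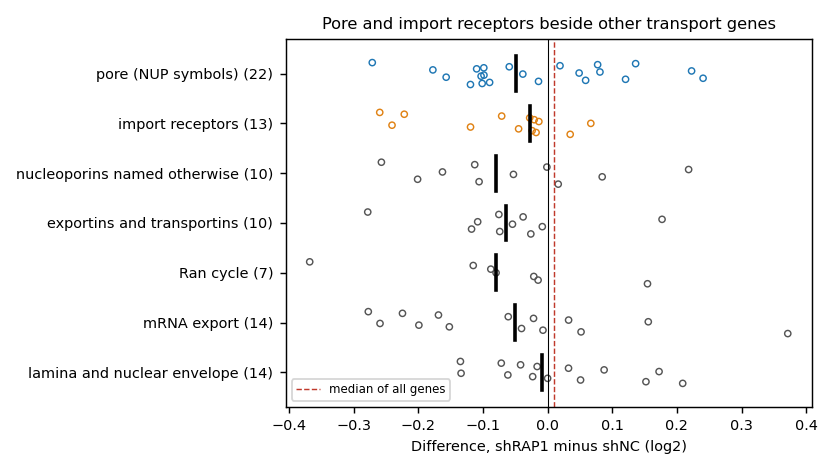
Difference, shRAP1 minus shNC (x axis, log2), of each gene past the floor in 7 sets of nuclear transport and envelope genes (points), with the median of each set (black bars) and of all genes (dashed red line, 0.010). All 7 medians lie below the dashed line, from −0.080 for the Ran cycle to −0.0082 for the lamina and envelope, and the points of every set extend to either side of 0.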

How the data were processed

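The authors deposited 1 intensity for each probe set, on a linear scale, from Affymetrix arrays labelled with a 3′ in vitro transcription kit, per the labels' protocols. RMA is the only tool in the submitters' processing notes. The sources used here do not give its version, the arrays normalised together or the genome build. Values ran up to 25726 on each array, hence the linear scale, and log2 was taken here with no pseudocount.

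Of 49293 non-control probe sets, 44988 carried 1 symbol in the platform annotation, 1832 several and 2473 none. No symbol of the 38 genes needed updating against RefSeq (GRCh38.p14). A gene was its probe set with the highest mean log2 value among those with 1 symbol whose higher value reached the floor of 78.0. Genes were counted at 1.2-fold, 1.5-fold and 2-fold. With 1 array per group no test was made. The members, the lists, the sizes and the motifs were chosen with earlier results of these data known. Named genes were every member, the RAP1 genes and up to 4 genes per list with the largest size of difference. Markers outside that rule were named after their values were seen. The lowess span was 0.3. Counting was tested on simulated data at the 1.5-fold size only. The planted changes were 2-fold and the noise was smaller than the spread between genes here, so that check does not bear on calls at 1.2-fold. Alternatives changed the probe set rule, floor, probe sets admitted, centring, summary and size. Python 3.11.15, numpy 2.4.6, pandas 2.3.3, scipy 1.17.1, statsmodels 0.14.6 and matplotlib 3.10.9 were used.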

Additional observations from a re-analysis of the deposited data

How the results depend on the processing

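The 11 alternatives (2 of them, leaving out NUP62CL and admitting probe sets with several symbols, chosen after seeing the data) left the pore and the receptor medians below 0 wherever a median was computed, but their size varied. The pore median ran from −0.059 (floor at the 75th percentile) to −0.0096 (without _x_at and _s_at), and the receptor median from −0.071 (the same floor) to −0.021 (several symbols admitted). Between means they were −0.020 and −0.074. Of the transport lists, the median ran from −0.084 to −0.053 for nucleoporins named otherwise, −0.074 to −0.032 for exportins and transportins, −0.080 to −0.021 for the Ran cycle and −0.10 to −0.048 for mRNA export. The pore minus receptor contrast (−0.021) was 0.012 with the floor at the 75th percentile, 0.035 without the less specific probe sets (names ending in _x_at or _s_at), 0.014 with lowess centring and 0.054 between means. The cause was not tested. Without those probe sets 11 of 22 pore and 9 of 13 receptor genes were lower, against 47.7% of all genes. With several symbols admitted, 10 of 15 receptor genes were lower, against 46.2% of all genes. The count of pore genes lower by 1.2-fold (1) was 0 for medians over a gene's probe sets, 0 with 2 or more agreeing probe sets, 0 at 1.5-fold, 0 at 2-fold and 2 of 22 without _x_at and _s_at. The receptor count (0) was 1 of 13 with lowess centring. The share of all genes lower by 1.2-fold was 3.58% in the main setting, 3.41% for those medians and 4.77% with agreeing probe sets. It was 4.06% without _x_at and _s_at and 4.42% with lowess centring. At 1.5-fold and 2-fold, 0.172% and 0.0192% of all genes were lower. Of 205 member values, 11 changed sign, over 10 genes. These were 4 with medians over a gene's probe sets, 4 without _x_at and _s_at, 2 with lowess centring and 1 with several symbols admitted. The changes of floor left each gene's probe set as it was, so the values counted there could not change sign. The lamina list had a mean of 0.016, the epithelial list a median of −0.016 without _x_at and _s_at (4 genes), and DDX39B was at −0.035 with several symbols admitted. The fibroblast and endothelial list (0.15, 1 gene) was at 0.092 with no floor (8 genes) and 0.088 with lowess centring. No paired analysis was possible because each group held 1 array. Dim probe sets near the floor limit what can be read for KPNA5 and KPNA7.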

Other observations

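Genes of the nuclear lamina and envelope, the sheet in which pores sit, were split. Of 14 measured, 8 were lower and 6 higher, against 46.8% and 53.2% of all genes past the floor. The median was −0.0082. None of the 14 reached 1.2-fold, against 3.58% of all genes lower and 4.96% higher by that size. LMNA, the gene of the A-type lamins, read 2993 in shRAP1 and 2589 in shNC, a difference of 0.21, and all 6 of its probe sets were higher, from 0.061 to 0.24. All 6 are of the less specific kind, so LMNA had no value without the _x_at and _s_at probe sets. LMNB2, a B-type lamin, was at −0.13 with both probe sets lower. LMNB1, the related B-type lamin, named after its value was seen, was also at −0.13, with all 4 probe sets lower. SUN2, which links the lamina to the cytoskeleton, was at 0.17 with all 6 probe sets higher, from 0.0044 to 0.38, and EMD, the gene of the envelope protein emerin, was at 0.15 on 1 probe set. Each of these compares 1 culture with 1 culture.

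The epithelial markers had a median of 0.057, with 5 of 7 higher, against 53.2% of all genes past the floor. CDH1 was at 0.12, CLDN4 at 0.10, KRT18 at 0.087 and EPCAM at −0.082.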
